A study of Homo sapiens with 10 samples.

Results

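The nuclear genes for subunits of the respiratory chain and of the ATP synthase were examined in HCT116, a long-established cell line from a human colorectal carcinoma. Genes were taken by symbol from the 19817 protein-coding genes of RefSeq on chromosomes 1 to 22 and X: NDUF genes followed by A, B, C, S or V and a number, SDHA to SDHD, and all symbols that begin with UQCR, COX4 to COX8 or ATP5. This gave 86 genes, of which 36 belong to complex I, 4 to complex II, 9 to complex III, 17 to complex IV and 20 to the ATP synthase (complex V). One of the 20 is a readthrough gene, ATP5MF-PTCD1, which shares its start and its peaks with ATP5MF.

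The study mapped RNA polymerase I (antibody to its largest subunit, POLR1A), RNA polymerase II (antibody to its largest subunit, POLR2A), H3K4me3, a mark of promoters, and H3K9me3, a mark of heterochromatin, to ask how the 2 polymerases lie relative to each other and to chromatin. All cells were wild type and untreated, and the 4 antibodies are the only difference between groups: 3 samples for POLR1A, 3 for POLR2A, 1 for H3K4me3 and 3 for H3K9me3. The assay was CUT&Tag, in which the antibody brings a transposase to its target and the enzyme tags the DNA nearby, here on 100000 to 200000 cells per replicate thawed on separate days. For each target 1 peak list was used, and the lists carry no value per replicate, so no spread between replicates, test or p-value can be given for anything below.

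Complex I takes electrons from NADH and complex II takes them from succinate. Complexes III and IV pass them on to oxygen, and the ATP synthase uses the proton gradient that complexes I, III and IV build to make ATP. Each complex except complex II also holds subunits encoded in mitochondrial DNA, so the nuclear genes, which RNA polymerase II transcribes, must be expressed in step with a separate genome. RNA polymerase I is known for transcribing ribosomal RNA and not protein-coding genes.

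The lists held 3812 POLR1A peaks, 19997 POLR2A peaks, 17181 H3K4me3 peaks and 16414 H3K9me3 peaks on the chromosomes analysed. The fold of a peak is the enrichment that the authors' peak caller wrote, a linear ratio, and it was compared only within its own list. A gene was counted as carrying a target if a peak of that list shared at least 1 base with the 1 kb on either side of one of its ends, and its fold is that of its strongest such peak. Markers of intestinal epithelium carried H3K4me3 at 7 of 9 genes, against 54.6% of all protein-coding genes. EPCAM, CDH1, KRT8 and CDX2 were among those with it, and VIL1 and LGR5 had no peak at their ends. Markers of other tissues carried it at 0 of 4 leukocyte genes, 1 of 4 fibroblast genes, 1 of 3 hepatocyte genes and 1 of 3 neuronal genes. POLR2A lay at 7 of 9 intestinal, 1 of 4 leukocyte, 0 of 4 fibroblast, 1 of 3 hepatocyte and 2 of 3 neuronal markers. By H3K4me3 the labelled cell type and its markers therefore do not conflict, while POLR2A did not set the neuronal markers apart.

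POLR2A and H3K4me3 peaks were more frequent at the respiratory genes than at protein-coding genes as a whole, and POLR1A and H3K9me3 peaks were about as frequent. POLR2A lay at an end of 56 of the 86 genes, 65.1%, against a background of 41.3% of all protein-coding genes. H3K4me3 lay at 64 of them, 74.4%, against 54.6%. POLR1A lay at 12, 14%, against 11.2%, and H3K9me3 at 3, 3.49%, against 2.7%. Peaks of both polymerases lay at the same end of 11 genes, 12.8%, against 10.7%. H3K9me3 peaks lay anywhere within 5 of the genes, against 13.6% of all protein-coding genes.

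Folds at the respiratory genes were also a little above those at all genes with a peak for POLR2A and H3K4me3. The median POLR2A fold was 9.87 at the 56 genes, against 8.87 at all genes with POLR2A, and the median H3K4me3 fold was 13.2 against 11.05. For POLR1A the medians were 5.91 and 6.08, so the respiratory genes did not exceed the rest. The 12 POLR1A folds ran from 3.81 to 11.2, the POLR2A folds from 2.78 to 24.9 and the H3K4me3 folds from 4.99 to 33.6. Strong POLR2A peaks did not go with strong H3K4me3 peaks: across the 56 genes with both, the rank correlation (Spearman's rho) of the folds was 0.08, and across all 7884 genes with both it was 0.01. The folds of POLR1A and POLR2A went together more, with a rho of 0.75 across the 11 genes with both and 0.58 across all 2125 such genes. These correlations are descriptions across genes of 1 cell line, and both polymerases are read at the same DNA.

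**Figure D1:**
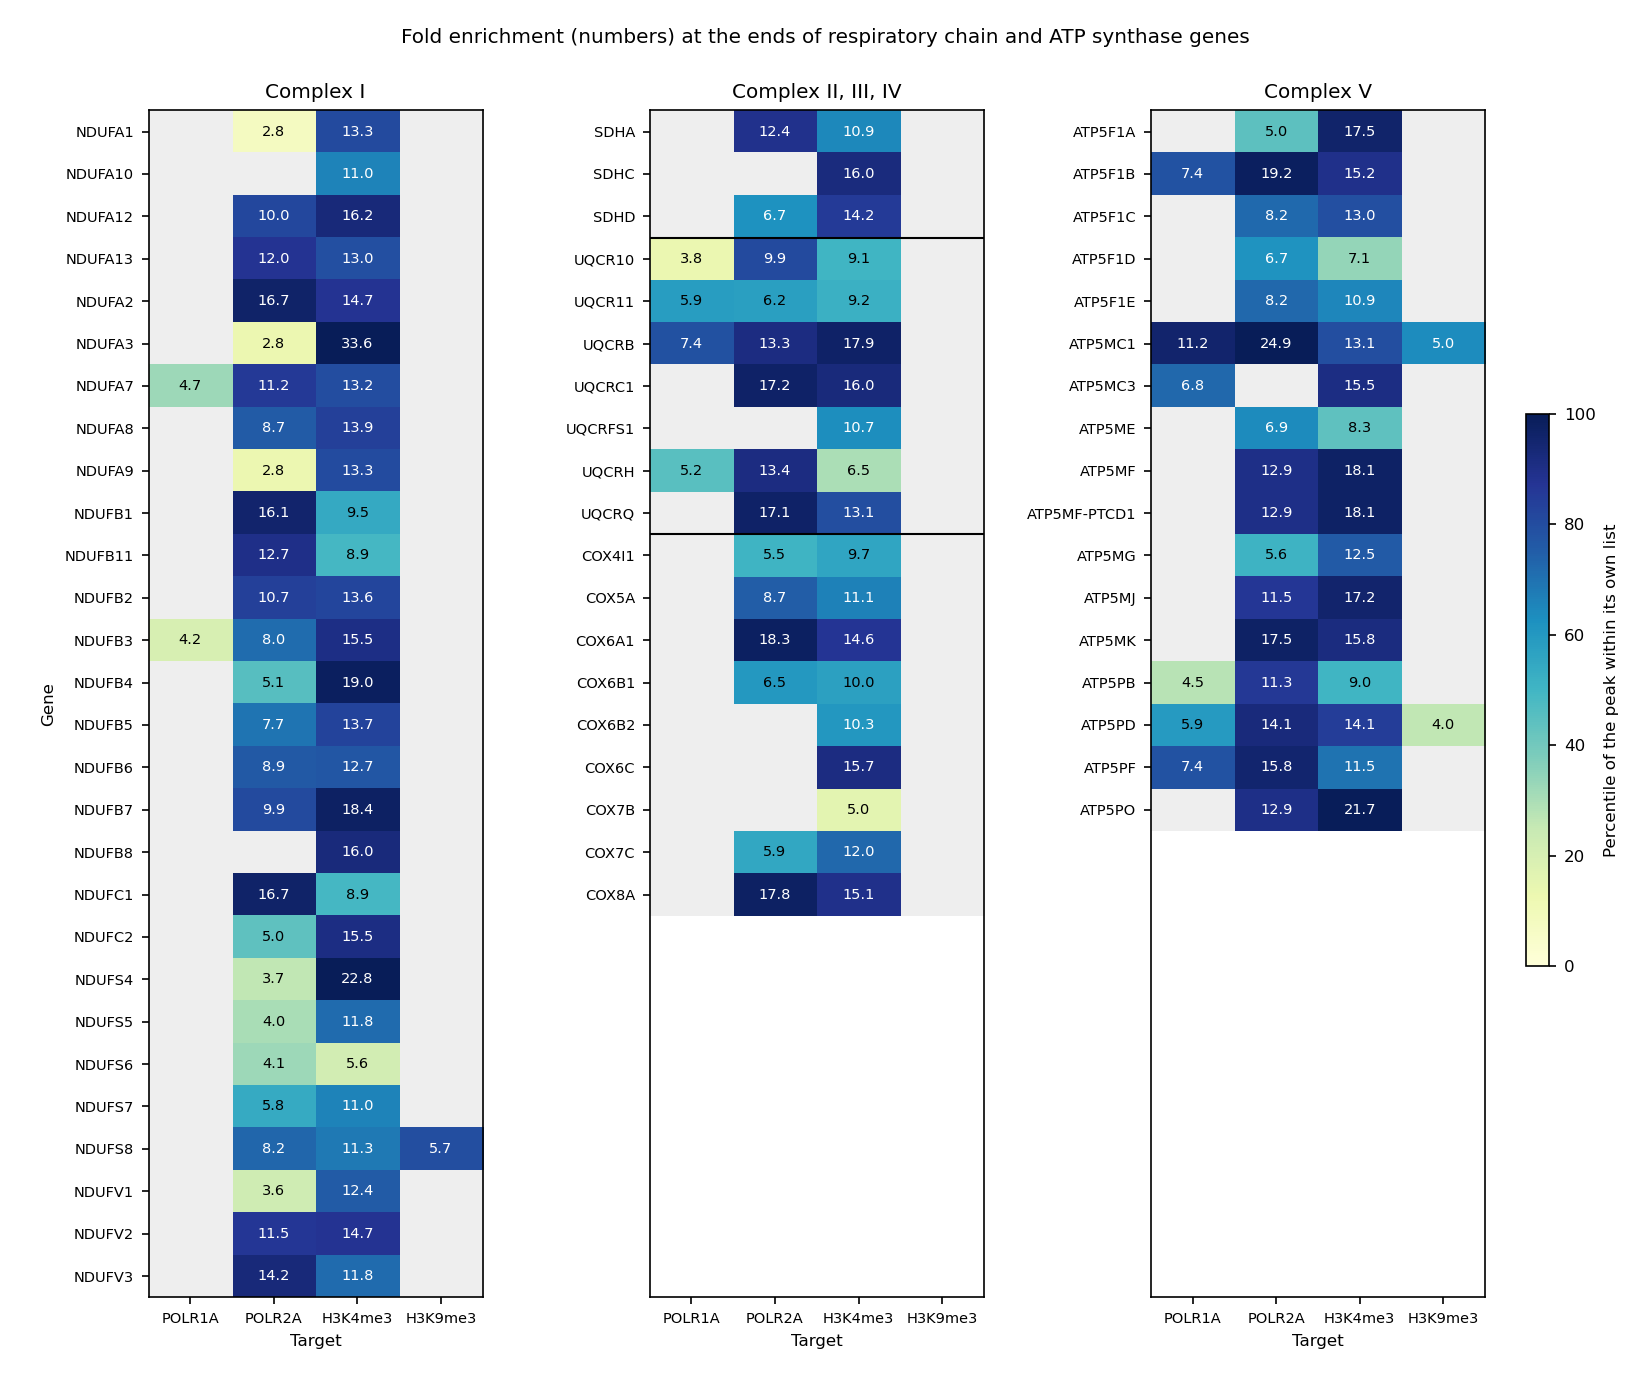
Fold enrichment (numbers, linear) and percentile of that fold within its own list (colour) of the strongest POLR1A, POLR2A, H3K4me3 and H3K9me3 peak within 1 kb of an end of each of the 64 genes with a peak of any list, in rows grouped by complex, with grey cells where the list holds no peak. POLR1A is present at 12 genes, most of them in complexes III and V, POLR2A at 56 and H3K4me3 at 64.

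The complexes differed in their shares of POLR1A and of POLR2A. Of the 20 ATP synthase genes 6 carried a POLR1A peak, and of the 9 complex III genes 4 did. Of the 36 complex I genes 2 did, and of the 4 complex II genes and the 17 complex IV genes 0 did. POLR2A was found at 16 of 20 ATP synthase genes, 6 of 9 complex III genes, 26 of 36 complex I genes, 2 of 4 complex II genes and 6 of 17 complex IV genes. Median POLR2A folds were highest in complex III, at 13.3, and in complex V, at 12.2, and they were 9.58 in complex II, 8.49 in complex I and 7.61 in complex IV. H3K4me3 medians ranged more narrowly, from 10.7 in complex III to 14.2 in complex II. The complex IV genes include the tissue-restricted COX4I2, COX6A2, COX6B2, COX7A1, COX7B2 and COX8C, all without POLR2A at their ends. COX5B, also of complex IV, lies more than 50 kb from any peak. COX7A2 and COX7A2L had POLR2A folds of 9.08 and 14.6 at starts that RefSeq lists inside the gene. The counts per complex are small, and a difference between complexes of this size was not tested.

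**Figure D2:**
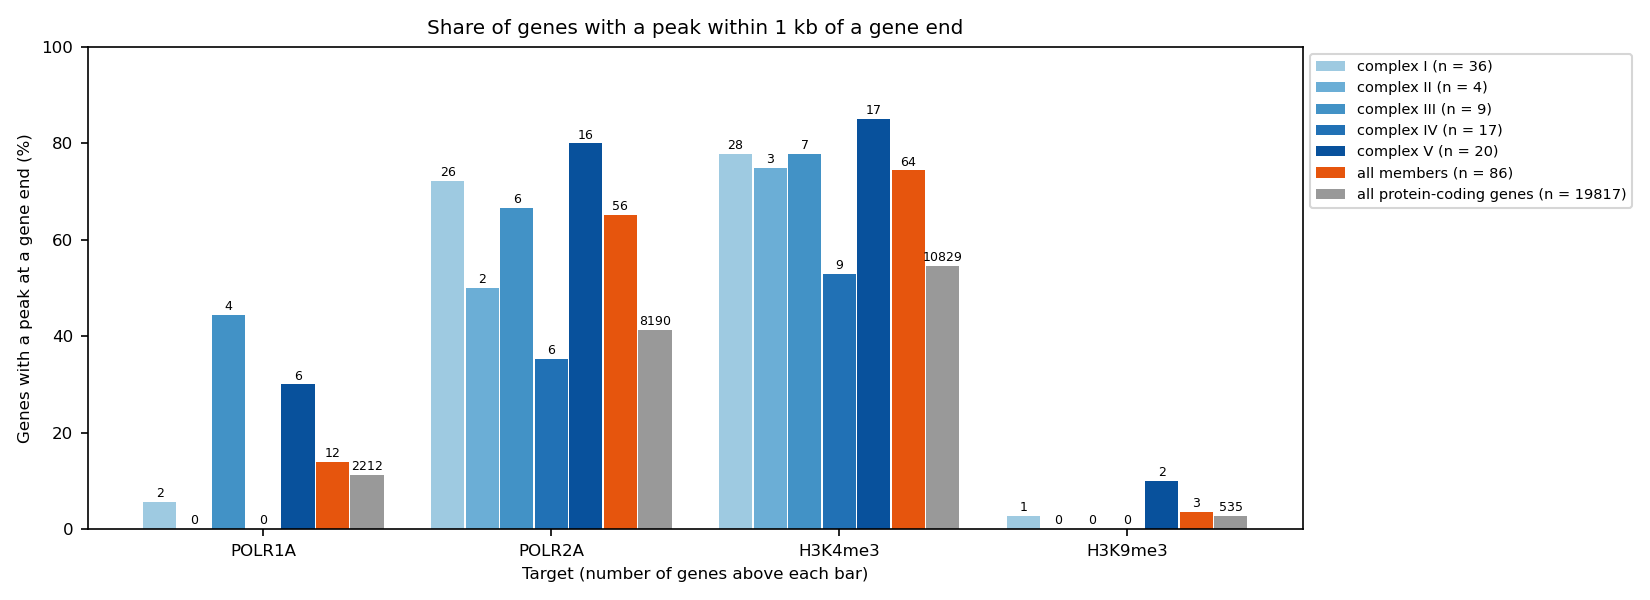
Percentage of genes (vertical axis, linear from 0) with a peak of each target at either end, for the 5 complexes (blue), their 86 genes together (orange, all members) and all 19817 protein-coding genes (grey), with the number of genes above each bar. POLR1A reaches 4 of 9 genes in complex III and 6 of 20 in complex V, and 0 in complexes II and IV, against 11.2% of all genes.

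The ATP synthase joins a rotating ring in the inner membrane to a catalytic head through a central and a peripheral stalk. The strongest POLR1A and POLR2A peaks of all the respiratory genes lay at ATP5MC1, one of the 3 genes that encode the same mature c subunit of the ring. ATP5MC1 had a POLR1A fold of 11.2, a POLR2A fold of 24.9, an H3K4me3 fold of 13.1 and an H3K9me3 fold of 5.02. Its POLR2A peak ranked above 99.8% of the POLR2A list and its POLR1A peak above 95.6% of the POLR1A list. On GRCh38 the POLR1A peak spans chr17:48892368-48892853 and the POLR2A peak chr17:48892329-48892860, both across the annotated start, inside an H3K4me3 peak at chr17:48891908-48893691. The H3K9me3 peak at chr17:48892584-48892990 overlaps all of these, with a -log10 q of 3.51.

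To show the sequence around such peaks, 250 bases before the RefSeq start are printed for genes that the results turn on. They come from RefSeq on GRCh38.p14, are read 5′ to 3′ on the gene's strand, and do not all lie under a peak. Capitals mark every match, on either strand, to 8 motifs, with adjoining matches run together, and positions are counted from the start as 0. The first motif, GCGC followed after any 2 bases by GCGC, is of the type known for NRF1, and CCGGAAG is of the type known for ETS factors such as GABP, both known regulators of nuclear respiratory genes. The motif AANATGGCG is the type bound by YY1, and GGGCGG that bound by SP1. The CRE of the CREB and ATF factors was searched as TGACGTCA, and the E-box of the basic helix-loop-helix factors as CACGTG. The box of NF-Y was searched as CCAAT, and the TATA box of the general transcription machinery as TATAAA. For ATP5MC1, plus strand, chr17:48892537-48892786, and for ATP5PD, a peripheral stalk subunit that also carries all 4 targets, minus strand, chr17:75046970-75047219, the sequences are as follows.
ATP5MC1: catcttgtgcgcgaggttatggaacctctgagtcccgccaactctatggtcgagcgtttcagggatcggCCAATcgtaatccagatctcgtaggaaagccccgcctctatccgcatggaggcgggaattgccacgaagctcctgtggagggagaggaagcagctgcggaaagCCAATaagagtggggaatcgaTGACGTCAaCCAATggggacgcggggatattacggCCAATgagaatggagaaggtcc
ATP5PD: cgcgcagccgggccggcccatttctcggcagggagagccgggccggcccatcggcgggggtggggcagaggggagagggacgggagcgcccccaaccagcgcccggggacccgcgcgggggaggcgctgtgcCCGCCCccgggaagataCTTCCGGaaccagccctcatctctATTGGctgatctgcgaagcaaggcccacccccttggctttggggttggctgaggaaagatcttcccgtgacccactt
The ATP5MC1 sequence has CCAAT at -181, -78, -48 and -22 relative to the start and TGACGTCA at -57. The POLR1A summit at -205 and the H3K9me3 summit at -132 lie in the same 250 bases. The ATP5PD sequence has one match each to the ETS-type, SP1-type and CCAAT letters, at -101, -118 and -77. Its POLR1A peak spans -89 to 263 and its H3K9me3 peak -25 to 307, so the ETS-type and SP1-type matches lie outside both. ATP5PD had a POLR1A fold of 5.93, a POLR2A fold of 14.1 and an H3K4me3 fold of 14.1. Its H3K9me3 fold was 4.04, with a -log10 q of 2.09.

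The other ring genes differed from ATP5MC1. ATP5MC3 carried POLR1A with a fold of 6.80 and H3K4me3 with a fold of 15.5 and no POLR2A peak at its ends, and it was the only respiratory gene with POLR1A and without POLR2A, a combination found at 0.439% of all protein-coding genes. ATP5MC2 had no peak at its outermost ends, but RefSeq lists starts further inside the gene, 5093 to 6004 bp from its 5′ end. At these it had a POLR1A fold of 6.42, a POLR2A fold of 20.1 and an H3K4me3 fold of 19.7. Counting every listed start, all 3 ring genes carried POLR1A and H3K4me3, against 12% and 57.7% of all protein-coding genes. POLR2A lay at 2 of the 3, against 43.9%. Both this group and the use of every listed start were chosen after the values were seen.

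The peripheral stalk keeps the head from turning. Of its 4 genes, a group drawn after the values were seen, ATP5PB, ATP5PD and ATP5PF carried POLR1A, against 11.2% of all protein-coding genes. Their folds were 4.50, 5.93 and 7.37, with -log10 q values of 2.23, 4.49 and 7.13, and ATP5PO (the OSCP subunit) had no POLR1A peak. The ATP5PB peak also lies near an end of WDR77. POLR2A lay at all 4, with folds of 11.3, 14.1 and 15.8 at the first 3 and 12.9 at ATP5PO, whose H3K4me3 fold of 21.7 was the highest in the complex. The POLR1A peak of ATP5PF, chr21:25734952-25735420, also lies within 1 kb of an end of GABPA, the gene for the DNA-binding subunit of GABP, which is transcribed away from it, so the peak cannot be given to either gene. The 250 bases before one of the ATP5PF starts, minus strand, chr21:25735055-25735304, lie under this shared peak.
ATP5PF: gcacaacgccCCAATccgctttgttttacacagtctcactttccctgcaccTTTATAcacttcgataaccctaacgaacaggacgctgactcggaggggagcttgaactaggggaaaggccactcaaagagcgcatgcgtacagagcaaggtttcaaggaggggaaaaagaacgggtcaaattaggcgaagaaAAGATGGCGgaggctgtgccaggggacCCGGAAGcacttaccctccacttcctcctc
It has a YY1-type match at -57 and an ETS-type match at -30.

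In the catalytic head, only ATP5F1B, the catalytic beta subunit, carried POLR1A, with a fold of 7.38 beside a POLR2A fold of 19.2 and an H3K4me3 fold of 15.2. All 5 head and central stalk genes carried POLR2A and H3K4me3. Their POLR2A folds were 5.00 at ATP5F1A (alpha), 8.16 at ATP5F1C (gamma), 6.68 at ATP5F1D (delta) and 8.20 at ATP5F1E (epsilon), all lower than at ATP5F1B. The 5 small membrane subunits around the ring, ATP5ME, ATP5MF, ATP5MG, ATP5MJ and ATP5MK, all carried POLR2A and H3K4me3, and 0 carried POLR1A. ATP5MK had the highest POLR2A fold among them, 17.5, followed by ATP5MF with 12.9 and ATP5MJ with 11.5. ATP5ME and ATP5MG had the lowest, 6.95 and 5.57. Their H3K4me3 folds ranged from 8.30 at ATP5ME to 18.1 at ATP5MF. Neither ATP5IF1, which inhibits the enzyme when it runs backwards, nor ATP5MGL had a peak at its ends.

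Complex III consists of a catalytic core, a pair of large core proteins and small subunits. POLR1A lay at 4 of the 5 small subunit genes, a group drawn after the values were seen, against 11.2% of all protein-coding genes. The folds were 7.39 at UQCRB, 5.88 at UQCR11, 5.23 at UQCRH (the hinge protein) and 3.81 at UQCR10. The UQCRH peak also lies near an end of LRRC41, and the UQCR10 peak near an end of ZMAT5. The fifth, UQCRQ, had no POLR1A peak although its POLR2A fold of 17.1 was higher than the 13.3, 6.23, 13.4 and 9.85 of UQCRB, UQCR11, UQCRH and UQCR10. The core protein gene UQCRC1 likewise had a POLR2A fold of 17.2, an H3K4me3 fold of 15.99 and no POLR1A. UQCRFS1, the Rieske iron-sulfur protein, had H3K4me3 with a fold of 10.7 alone, and UQCRC2 had no peak at its ends. At UQCR11 the summits of the POLR1A and POLR2A peaks lay on the same base, at -161 bp from the start, and the sequence up to the start, minus strand, chr19:1605463-1605712, holds that base.
UQCR11: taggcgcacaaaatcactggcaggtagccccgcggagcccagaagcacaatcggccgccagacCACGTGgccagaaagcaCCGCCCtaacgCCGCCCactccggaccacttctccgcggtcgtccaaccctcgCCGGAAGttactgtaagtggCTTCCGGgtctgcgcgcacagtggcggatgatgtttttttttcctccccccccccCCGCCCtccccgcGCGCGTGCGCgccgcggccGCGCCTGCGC
It has NRF1-type matches at -29 and -10, ETS-type matches in both orientations at -117 and -97, SP1-type matches at -170, -159 and -42 and an E-box at -187. The POLR1A peak spans -422 to -144, so the NRF1-type and ETS-type matches lie outside it, while the POLR2A peak spans -661 to 37.

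Complex IV, cytochrome c oxidase, had strong POLR2A at the outermost ends of a pair of genes and none or weak POLR2A at those of most others. COX6A1 had a POLR2A fold of 18.3 and COX8A one of 17.8, ranks above 97.7% and 97.3% of the POLR2A list, and neither had a POLR1A peak. The next was COX5A, which binds early in assembly, at 8.73, followed by COX6B1 at 6.49, COX7C at 5.93 and COX4I1, a regulatory subunit, at 5.51. H3K4me3 was more even, with folds of 14.6 at COX6A1, 15.1 at COX8A, 11.1 at COX5A, 9.96 at COX6B1, 11.98 at COX7C and 9.71 at COX4I1. The COX6B1 peak of POLR2A lay at the 3′ end of the gene and not at its start. COX6C and COX7B, on the other hand, had H3K4me3 folds of 15.7 and 4.99 and no POLR2A. The sequences before the starts of COX8A, plus strand, chr11:63974370-63974619, and COX6A1, plus strand, chr12:120437863-120438112, stand beside those of the genes with POLR1A.
COX8A: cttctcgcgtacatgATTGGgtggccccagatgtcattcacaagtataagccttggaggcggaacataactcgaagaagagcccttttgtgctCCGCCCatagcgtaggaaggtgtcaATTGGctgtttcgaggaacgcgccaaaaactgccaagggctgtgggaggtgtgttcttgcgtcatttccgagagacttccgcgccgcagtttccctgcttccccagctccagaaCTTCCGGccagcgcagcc
COX6A1: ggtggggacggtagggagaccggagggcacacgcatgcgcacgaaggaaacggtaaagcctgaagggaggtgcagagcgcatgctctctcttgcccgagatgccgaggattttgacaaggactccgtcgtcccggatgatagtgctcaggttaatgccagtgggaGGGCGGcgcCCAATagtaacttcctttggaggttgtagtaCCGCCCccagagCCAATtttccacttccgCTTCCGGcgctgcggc
Both have an ETS-type match close to the start, at -18 in COX8A and at -16 in COX6A1, and a pair of CCAAT letters, so these letters occur before strong POLR2A genes with and without POLR1A.

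Several complex IV subunits exist as a broadly used and a tissue-restricted form, and POLR2A peaks were found at broad forms and at none of the restricted forms listed here. Not every pair differed: COX7B and COX7B2 both lacked POLR2A, and COX7A1 and COX7A2 both lacked peaks at their outermost ends. COX4I2, COX6A2, COX7A1, COX7B2 and COX8C, known from lung, muscle, heart or testis, and the retrogene UQCRHL and ATP5MGL had no peak at their ends. COX6B2, known from testis, had H3K4me3 with a fold of 10.3, about that of its broad form COX6B1, 9.96. The COX6B2 peak spans 448 to 900 bp after the start and also lies near an end of GARIN5B. Its -log10 q was 17.7, against 118.9 for the COX6B1 peak, which spans the start. So of 8 restricted genes 0 had POLR2A and 1 had H3K4me3, and of their 8 broad counterparts 6 had POLR2A and 7 had H3K4me3, against 41.3% and 54.6% of all protein-coding genes. COX7A2, the broad form of COX7A1, had no peak at its outermost 5′ end and had POLR2A and H3K4me3 folds of 9.08 and 18.2 at a start that RefSeq lists 6497 bp inside.

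Complex I had many genes with a promoter mark and modest POLR2A. Its 2 genes with POLR1A were NDUFA7, with a fold of 4.70, and NDUFB3, with 4.25, both accessory subunits, and both POLR1A peaks lie within 1 kb of an end of another gene, RPS28 and HYCC2. NDUFA7 had a POLR2A fold of 11.2 and NDUFB3 one of 8.03. The highest POLR2A folds in the complex were 16.7 at NDUFA2, 16.7 at NDUFC1 and 16.1 at NDUFB1, with no POLR1A at their ends. At NDUFC1 a POLR1A peak with a fold of 5.92 lay within 1 kb of starts listed 74 to 1341 bp further inside. Its POLR2A peak spans 965 to 1515 bp after the outermost start and also lies near an end of NAA15.

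The nuclear genes of the catalytic core of complex I, whose products hold the flavin and the iron-sulfur clusters, included 4 with POLR2A: NDUFV1 with a fold of 3.63, NDUFV2 with 11.5, NDUFS7 with 5.83 and NDUFS8 with 8.22. NDUFS1 and NDUFS3 had no peak at their ends. Of the 29 accessory genes, which wrap the core and aid its assembly and stability, 22 had POLR2A and 24 had H3K4me3. Among those not yet named, POLR2A folds above 10 were found at NDUFV3 with 14.2, NDUFB11 with 12.7, NDUFA13 with 11.98, NDUFB2 with 10.7 and NDUFA12 with 10.03. NDUFB7, NDUFB6, NDUFA8 and NDUFB5 followed with 9.89, 8.90, 8.75 and 7.72. NDUFB4, NDUFC2, NDUFS6 and NDUFS5 had 5.08, 4.98, 4.13 and 3.98. H3K4me3 at these genes ranged from 5.57 at NDUFS6 to 19.0 at NDUFB4, without following the order of POLR2A. NDUFA10 and NDUFB8 had H3K4me3 alone, and NDUFA5, NDUFA6, NDUFA11, NDUFB9 and NDUFB10 had no peak at their ends. NDUFS8 also carried the highest H3K9me3 fold of the 3 genes with that mark, 5.68, in a peak that spans -1442 to -889 bp relative to the start, chr11:68029239-68029792, and near an end of ALDH3B1. In ATP5MC1 and ATP5PD the H3K9me3 peak spans the start itself. These were weaker calls, with a -log10 q of 3.51 and 2.09, against 7.07 at NDUFS8, and neither reached a -log10 q of 5.

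NDUFA3 had the highest H3K4me3 fold of the respiratory genes, 33.6, with one of the lowest POLR2A folds, 2.80. NDUFS4, whose loss is a known cause of Leigh syndrome, had an H3K4me3 fold of 22.8 beside a POLR2A fold of 3.71. NDUFA1 and NDUFA9 had POLR2A folds of 2.78 and 2.80 beside H3K4me3 folds of 13.3 at both. These low POLR2A peaks lie near the threshold of the list, with a -log10 q of 1.38 at NDUFA1, NDUFA3 and NDUFA9. The sequence before the NDUFA3 start, plus strand, chr19:54102605-54102854, is shown because the gene stands at the edge of the plot of POLR2A against H3K4me3.
NDUFA3: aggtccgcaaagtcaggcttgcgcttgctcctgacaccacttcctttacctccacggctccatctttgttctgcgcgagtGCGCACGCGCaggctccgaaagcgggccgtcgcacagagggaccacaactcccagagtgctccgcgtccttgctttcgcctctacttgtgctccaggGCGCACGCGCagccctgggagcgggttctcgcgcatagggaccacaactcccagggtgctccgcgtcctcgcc
It has the same NRF1-type match, GCGCACGCGC, at -170 and at -73. The first lies outside the H3K4me3 peak, which begins at -159, and both lie outside the POLR2A peak, which begins at -37.

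**Figure D3:**
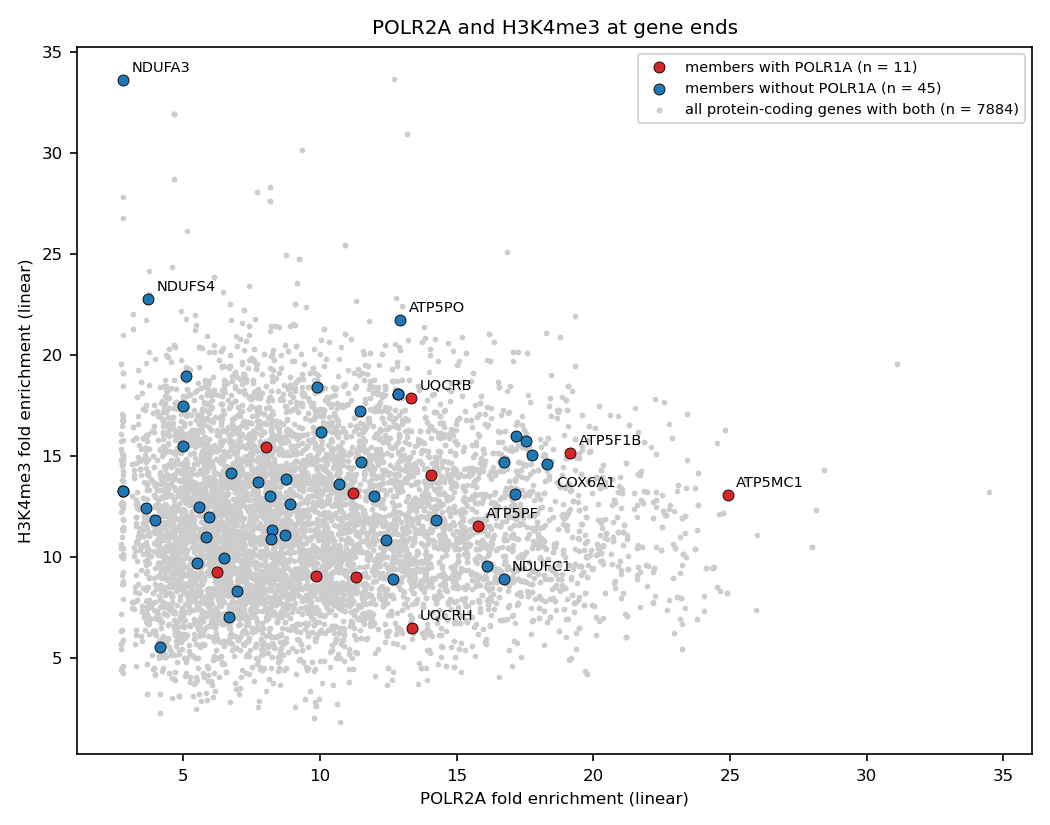
POLR2A fold (horizontal axis, linear) against H3K4me3 fold (vertical axis, linear) at gene ends, for the respiratory genes with POLR1A (red, n = 11), those without it (blue, n = 45) and all 7884 protein-coding genes with both targets (grey). NDUFA3 lies at the top left with 33.6 and 2.80, and ATP5MC1 at the right with a POLR2A fold of 24.9.

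Complex II, succinate dehydrogenase, also works in the citric acid cycle. SDHA, the flavoprotein, had a POLR2A fold of 12.4 and an H3K4me3 fold of 10.9, and SDHD, a membrane anchor, had 6.74 and 14.2. SDHC, the other anchor, had an H3K4me3 fold of 15.96 and no POLR2A. SDHB, the iron-sulfur subunit, lies in a stretch without peaks of any list, and no value is read for it.

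No gene of the 86 had POLR2A and no H3K4me3, a combination found at 1.54% of all protein-coding genes. H3K4me3 without POLR2A was found at 8 of the genes, against 14.9% of all protein-coding genes: NDUFA10, NDUFB8, SDHC, UQCRFS1, COX6B2, COX6C, COX7B and ATP5MC3. Their H3K4me3 folds ran from 4.99 at COX7B to 15.996 at NDUFB8.

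No peak of the 4 lists lay at either end of 22 of the respiratory genes, 25.6%, against 42.8% of all protein-coding genes. Of these, 8 lay more than 50 kb from any peak: SDHB, ATP5IF1, COX5B, NDUFS1, NDUFB9, COX8C, NDUFB10 and NDUFA11. They make up 9.3% of the 86 genes, against 11.8% of all protein-coding genes. Stretches without peaks reached 465.9 kb at COX8C and 432 kb at NDUFS1, and what lies in such stretches was not analysed here. Rows of the lists may have been left out around these genes, so their lack of peaks is not read as a lack of the target, and the 22 genes may include genes that carry one. Leaving out genes more than 50 kb from any peak raises every share by construction. Among the 78 respiratory genes left, H3K4me3 lay at 82.1%, against 62% of all protein-coding genes left, POLR2A at 71.8% against 46.9%, and POLR1A at 15.4% against 12.7%. Of the genes with no peak at their ends, COX7A2L, COX7A2, NDUFA5 and ATP5MC2 had an H3K4me3 peak at a start listed inside the gene.

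Counting all RefSeq starts in place of the outermost ends alone added 4 genes to each target but H3K9me3. POLR1A then lay at 16 genes, 18.6%, against 12% of all protein-coding genes, POLR2A at 60 against 43.9%, and H3K4me3 at 68 against 57.7%. H3K9me3 lay at 4, against 2.94%. The genes added for POLR1A were COX7A2L, with a fold of 6.12, NDUFA5, with 5.10, ATP5MC2 and NDUFC1. COX7A2L, which encodes a factor that joins complexes III and IV into supercomplexes, then carried all 4 targets, with POLR2A, H3K4me3 and H3K9me3 folds of 14.6, 11.5 and 5.998. The NDUFA5 start lies 43833 bp inside the gene.

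Where POLR1A and POLR2A lay at the same end, POLR2A folds were higher, as they were among all genes. POLR1A was present at 11 of the 56 genes with POLR2A, 19.6%, against 25.9% of all genes with POLR2A. The median POLR2A fold was 13.3 at the 11 genes with POLR1A and 8.73 at the 45 genes without, against 13.2 and 7.79 over all protein-coding genes. H3K4me3 showed no such gap: its median was 13.1 at the 12 genes with POLR1A and 13.2 at the 52 genes without.

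At the strongest POLR2A peaks, however, POLR1A was less frequent at the respiratory genes than at genes as a whole. With a POLR2A fold of 15 or more, POLR1A lay at 3 of 11 respiratory genes, 27.3%, against 62.3% of all 1180 genes in that class. The 3 were ATP5MC1, ATP5F1B and ATP5PF. The 8 without POLR1A were COX6A1, COX8A, ATP5MK, UQCRC1, UQCRQ, NDUFA2, NDUFB1 and, by its outermost ends alone, NDUFC1. With a fold of 10 to under 15 it lay at 5 of 16 against 37.6%, with 5 to under 10 at 3 of 21 against 13.6%, and under 5 at 0 of 8 against 5.08%. With all listed starts the top class had 5 of 12, 41.7%, against 64.1%. The lower classes then had 6 of 17 against 37.7%, 4 of 23 against 13.9% and 0 of 8 against 4.94%. The class with the gap holds few genes, and no test of it was made.

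**Figure D4:**
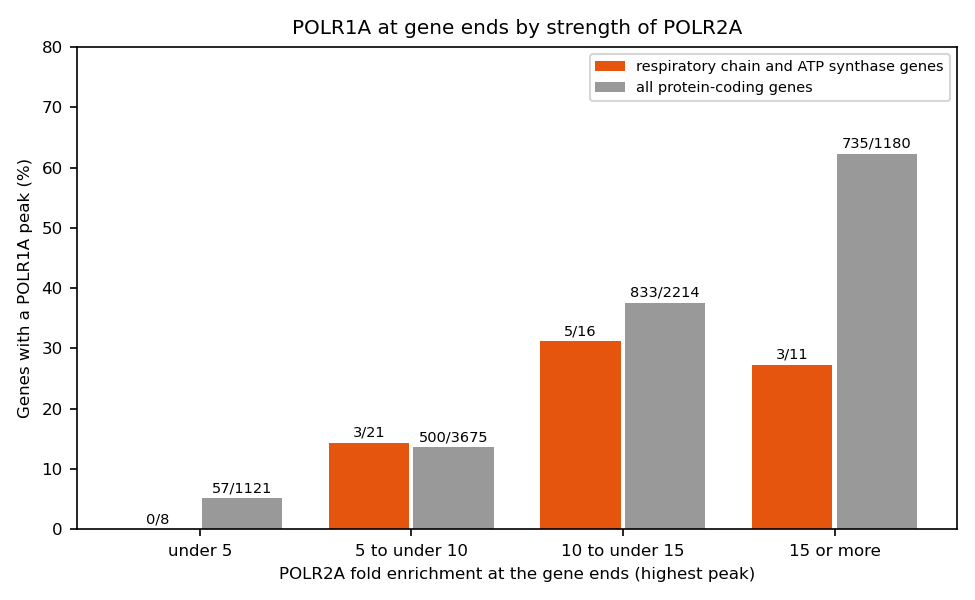
Percentage of genes with a POLR1A peak (vertical axis, linear from 0) by POLR2A fold class (horizontal axis), for the respiratory genes and for all protein-coding genes with POLR2A. In the class of 15 or more the respiratory genes stand at 27.3% and all genes at 62.3%.

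The POLR1A peaks of these genes were spread over their own list, and 7 of 12 had a fold above its median. Their -log10 q ran from 1.39 at UQCR10 to 19.4 at ATP5MC1, and 5 of 12 reached 5, against 38% of the whole list: ATP5MC1, ATP5F1B, ATP5MC3, ATP5PF and UQCRB. At that threshold POLR1A lay at 5 of the 86 genes, 5.81%, against 5.36% of all protein-coding genes, and both polymerases at the same end of 4, against 5.31%. Of the 12 POLR1A peaks 6 also lay within 1 kb of an end of another protein-coding gene, 50%, against 42% over all genes. For POLR2A 30 of 56 strongest peaks were shared in this way, 53.6%, against 33%, and for H3K4me3 30 of 64, 46.9%, against 31%. Examples are NDUFB1 with CPSF2, NDUFA2 with IK and TMCO6, and ATP5MK with PDCD11. Which of such a pair a peak belongs to cannot be told from the lists.

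The peaks lay close to the annotated starts. The strand was known for 69 of the 86 genes. Over the 46 of these with POLR2A at the 5′ end the median summit position was -70 bp, with quartiles of -126 and -22.5 bp, and 17.4% of summits lay after the start. Over all 6556 protein-coding genes with such a peak the median was -75 bp, with quartiles of -152 and 26 bp, and 29.3% lay after the start. H3K4me3 summits lay after the start, with a median of 80 bp at 53 respiratory genes against 189 bp at all 8766 genes. POLR1A summits had a median of -161 bp at 9 genes, against -107 bp at 1775 genes. H3K4me3 peaks had a median width of 1272 bp at the respiratory genes and 1105 bp at all genes.

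**Figure D5:**
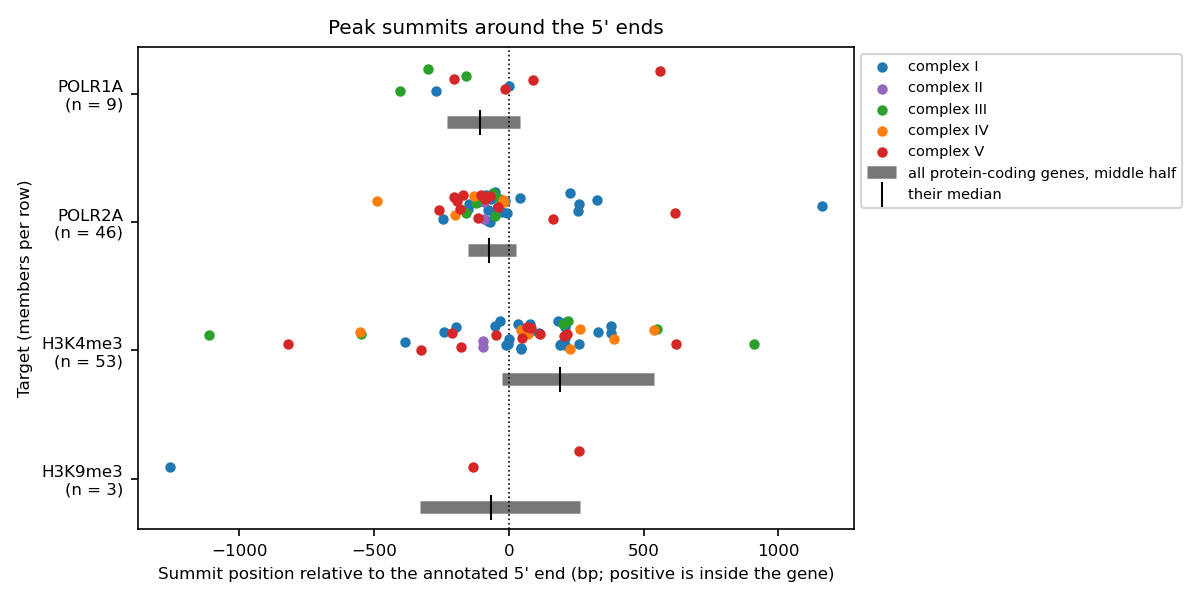
Summit position relative to the annotated 5′ end (horizontal axis, bp, negative before the start) for POLR1A, POLR2A, H3K4me3 and H3K9me3 peaks at the respiratory genes of known strand, coloured by complex, with the median (black line) and quartiles (grey bar) of all protein-coding genes (vertical scatter within a row only separates points). POLR2A summits gather just before the start, with a median of -70 bp, and H3K4me3 summits just after it, with a median of 80 bp.

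All 11 POLR1A peaks at an end with POLR2A overlapped the POLR2A peak, and all 12 POLR1A peaks overlapped an H3K4me3 peak. The median distance between POLR1A and POLR2A summits was 57 bp, with a range of 0 at UQCR11 to 370 bp at UQCR10, against 63 bp over all genes. POLR2A at a 3′ end was found at 4 genes of known strand, NDUFB6, NDUFA7, COX6B1 and ATP5PO. At NDUFB6 that peak, with a fold of 8.90, also lies near an end of TOPORS and is the gene's only POLR2A peak.

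The sequences around the starts of the respiratory genes held some of the motifs more often than other promoters. In windows from 250 bases before to 50 bases after the start, 82 windows of 69 genes, AANATGGCG was found in 23.2%, against 4.25% of all 22155 protein-coding windows and 6.45% of the 12658 windows of genes with H3K4me3. CCGGAAG was found in 26.8%, against 12.8% and 17.9%, and the NRF1-type motif in 22%, against 10.6% and 14.6%. Many of the AANATGGCG matches lay after the start, as at 21 in NDUFS4 and 23 in UQCRC1, and others before it, as at -180 in NDUFS8. TGACGTCA was found in 6.1%, against 2.26% and 2.84%. The other motifs differed less: GGGCGG stood at 62.2%, against 56.3% and 68.4%, CCAAT at 35.4%, against 34.6% and 35.2%, CACGTG at 8.54%, against 8.34% and 9.62%, and TATAAA at 8.54%, against 9.47% and 5.78%. The windows of the respiratory genes were not richer in G and C, with a median of 59.7%, against 62.3% and 65.3%. Genes with several listed starts count once per start, and overlapping matches to different motifs were each counted.

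Other genes for the same organelle carried H3K4me3 at a larger share than the 64 of 86 subunit genes. The 86 include 8 tissue-restricted genes and 8 genes more than 50 kb from any peak. Without both groups, 63 of the 71 subunit genes left (88.7%) carried H3K4me3. The assembly factor and mitochondrial ribosomal groups were not reduced in this way, and 2 genes of each lie more than 50 kb from any peak. The 57 assembly factor genes had POLR2A at 50 (87.7%), H3K4me3 at 55 (96.5%), POLR1A at 10 (17.5%) and H3K9me3 at 1 (1.75%). The shares of all protein-coding genes were 41.3%, 54.6%, 11.2% and 2.7%, in the same order. Among them UQCC6, which acts in complex III assembly, had the highest POLR1A fold, 11.8. The 74 genes for mitochondrial ribosomal proteins had POLR2A at 57 (77%), H3K4me3 at 69 (93.2%) and POLR1A at 15 (20.3%). Of 17 genes for regulators of mitochondrial gene expression, 13 had POLR2A (76.5%), 16 had H3K4me3 (94.1%) and 4 had POLR1A (23.5%). TFB1M, which modifies mitochondrial ribosomal RNA, had a POLR1A fold of 11.4. ESRRA had 7.91, GABPA 7.37 and TFAM, which packages mitochondrial DNA, 5.10. CYCS, which encodes cytochrome c, had a POLR1A fold of 9.44 and a POLR2A fold of 20.5.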

How the data were processed

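CUT&Tag peaks of POLR1A, POLR2A, H3K4me3 and H3K9me3 in HCT116 cells came as 1 deposited list per target. Per the file headers and layout, the authors' fold enrichment is a linear ratio, −log10 p and −log10 q values were deposited beside it, and the summit is an offset from the peak start. STAR, SAMtools 1.6 and deepTools 3.1.1 appear in the submitters' processing notes without a role, with GRCh38 and hg38 as builds. The peak caller's settings and control, and any pooling of replicates, are not stated in these sources, and read depth is unknown. Control antibody samples were not used here.

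Genes came from the RefSeq table of GRCh38.p14 (59792 genes, 679 on scaffolds or patches left out), which gives no strand. The strand came from the RefSeq promoter table, matched for 69 of the 86 genes. Overlaps were computed with Python 3.11.15 and pandas 2.3.3, and the overlap code was tested on simulated data. The comparison was a description by counts and medians. Genes named are all members of the set or of the listed pathway groups. The gene set, lists and motifs were chosen with earlier results of these data known, and the role groups after their values were seen. Windows of 500 bp and 2 kb, a −log10 q of at least 5, lists of equal length, summits only, the 5′ end alone and other symbol rules were tried as alternatives. Some results for single genes are not reported here.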

Additional observations from a re-analysis of the deposited data

How the results depend on the processing

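Of 50 values (5 counts of genes under 10 alternatives), 43 stayed within 1.5 times the reported count. With a −log10 q of at least 5, POLR1A fell to 5 genes (5.81%, against 5.36% of all protein-coding genes), both polymerases at the same end to 4 (4.65% against 5.31%) and H3K9me3 to 1. With each list shortened to the 3812 peaks of highest fold, POLR2A fell to 27 genes (31.4% against 17.3%), H3K4me3 to 36 (41.9% against 17.8%) and H3K9me3 to 1. In both settings the gene left with H3K9me3 was NDUFS8. Windows of 2 kb gave 5 genes with H3K9me3. Fewer peaks in the first 2 settings and wider windows in the last account for these moves by construction. The number of genes with H3K4me3 and no POLR2A was 21 under the q threshold and 17 with equal lists, against 8 as reported. The number with no peak at either end was 39 with equal lists and 14 when genes over 50 kb from any peak were left out, against 22. The alternatives that count all listed starts or leave out genes far from peaks were chosen after seeing the data. No paired analysis was possible because the lists name no replicate, although the labels share replicate numbers, and for the same reason leaving out a replicate was not possible. Depth is unknown, so a gene without a peak may carry the target below what the lists resolve.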

Other observations

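Among the windows around respiratory gene starts, CACGTG was found in 4 of 10 windows of genes with POLR1A at their outermost ends. It was found in 3 of 72 windows of the other genes. This contrast was picked after the values of 8 motifs were seen, several windows belong to the same gene, and it was not tested. The 72 include windows of NDUFC1, ATP5MC2, COX7A2L and NDUFA5, which had a POLR1A peak within 1 kb of a start listed inside the gene. NDUFA4, now named COXFA4 and counted with complex IV, is not part of the set by its present symbol. It had a POLR1A fold of 6.46, a POLR2A fold of 14.8 and an H3K4me3 fold of 13.4. Its relative COXFA4L2 had no peak at its ends.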
